A study of Mus musculus with 3 samples.

Results

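The transcripts of the translation initiation and elongation factors were followed in visceral (perigonadal) white adipose tissue (VWAT) of the mouse. The members are the genes whose symbol in the array's annotation starts with Eif or Eef, without the eIF2 alpha kinases (Eif2ak) and without the Y-linked Eif2s3y, and with at least 1 probe above background (detection p under 0.01) on at least 1 array. Of 59 such symbols 50 were measured and 9 were detected on no array, among 10603 measured genes in all. The study used C57BL/6JRj mice in 3 groups, with a single Illumina bead array for each. HFD-Rapa mice were obese, received a high-fat diet and were injected weekly with rapamycin (2 mg/kg) for 22 weeks. HFD-Ve mice were obese and received the same diet and injections of vehicle. The mice of the third group, called chow here, were lean. The labels describe them as fed a low-fat diet with vehicle, the methods as fed regular chow. The labels give an age of 28 weeks for all 3 groups, and the schedule in the methods adds up to an older age. The methods state that RNA of 5 mice was pooled per group, that mice of both sexes were used and that Eef2 was the internal control of the RT-qPCR. Which sexes went into a pool is not stated. Each gene has therefore 1 value per group, no difference has a replicate check, and no test was made.

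Translation starts when eIF2 brings the initiator methionyl-tRNA to the small ribosomal subunit, which eIF3 and the scanning factors hold ready, and when the cap-binding complex eIF4F delivers the mRNA. The eIF4E-binding proteins hold eIF4E away from eIF4F until the kinase complex mTORC1, the target of rapamycin, phosphorylates them, and 4E-BP1 was first studied in fat cells as a protein regulated by insulin. The ribosome is then fed with aminoacyl-tRNA by eEF1 and moved along the mRNA by eEF2. Many mRNAs of the translation machinery begin with a C and a run of pyrimidines, a 5′ terminal oligopyrimidine (TOP) start, which makes their translation depend on mTORC1.

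Few translation factor transcripts differed between the VWAT of HFD-Rapa mice and that of HFD-Ve mice. The elongation factor Eef1a2 was 2.99-fold higher and Eif6, which keeps the large ribosomal subunit from joining too early, was 1.55-fold higher in HFD-Rapa. The lowest member, Eif4ebp1, which encodes 4E-BP1, was 1.45-fold lower. Thus 2 of the 50 members were at least 1.5-fold higher, where 8.55% of all measured genes were, and 0 were at least 1.5-fold lower, where 7.56% of all genes were. The median log2 difference was 0.00 over the members (lower quartile -0.14, upper quartile 0.14) and 0.02 over all genes (-0.22 and 0.26). The signals behind these folds were corrected for background and quantile normalized, so that the distribution of signals is alike on the 3 arrays. When the arrays were shifted to a common median instead, the median of all genes became -0.09 and that of the members -0.11, and 1 member was higher and 3 were lower, beside 5.99% and 10.7% of all genes. The members lay 0.02 below all genes in both settings. In bulk tissue, fewer cells of a type and less RNA per cell cannot be told apart, and no cell type is assigned to these differences.

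Between the diets more members passed 1.5-fold, as did more of all genes. Between HFD-Ve and chow, 2 members were at least 1.5-fold higher, Eif3h and Eef1a2, and 3 were lower, Eif2b3, Eif4e3 and Eif4ebp2. The same fold was passed upward by 15.1% and downward by 11.7% of all genes. Eef1a2 was not detected on the chow array and was there only known to be at least 1.07-fold higher, which leaves Eif3h alone past 1.5-fold at this bound, a call that was lost without background correction and in the authors' processed values. Between HFD-Rapa and chow, 5 members were higher and 6 lower, against 20.5% and 19.5% of all genes. The members higher in HFD-Rapa were Eef1a2, Eif3h, Eif3k, Eif2s2 and Eef1b2, and those lower were Eif4e3, Eif4ebp1, Eif4ebp2, Eif2b3, Eif2b1 and Eif4a2. The median log2 difference of the members was -0.05 for HFD-Ve and -0.09 for HFD-Rapa against chow, beside -0.05 and -0.04 over all genes. With a common median these values were 0.17 and 0.02 for the members and 0.15 and 0.06 for all genes, and the counts for HFD-Ve against chow were 5 members higher and 1 lower, beside 21.8% and 6.57% of all genes. The comparisons share arrays, HFD-Ve in the first pair and chow in the last, so they are not independent of each other.

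**Figure D1:**
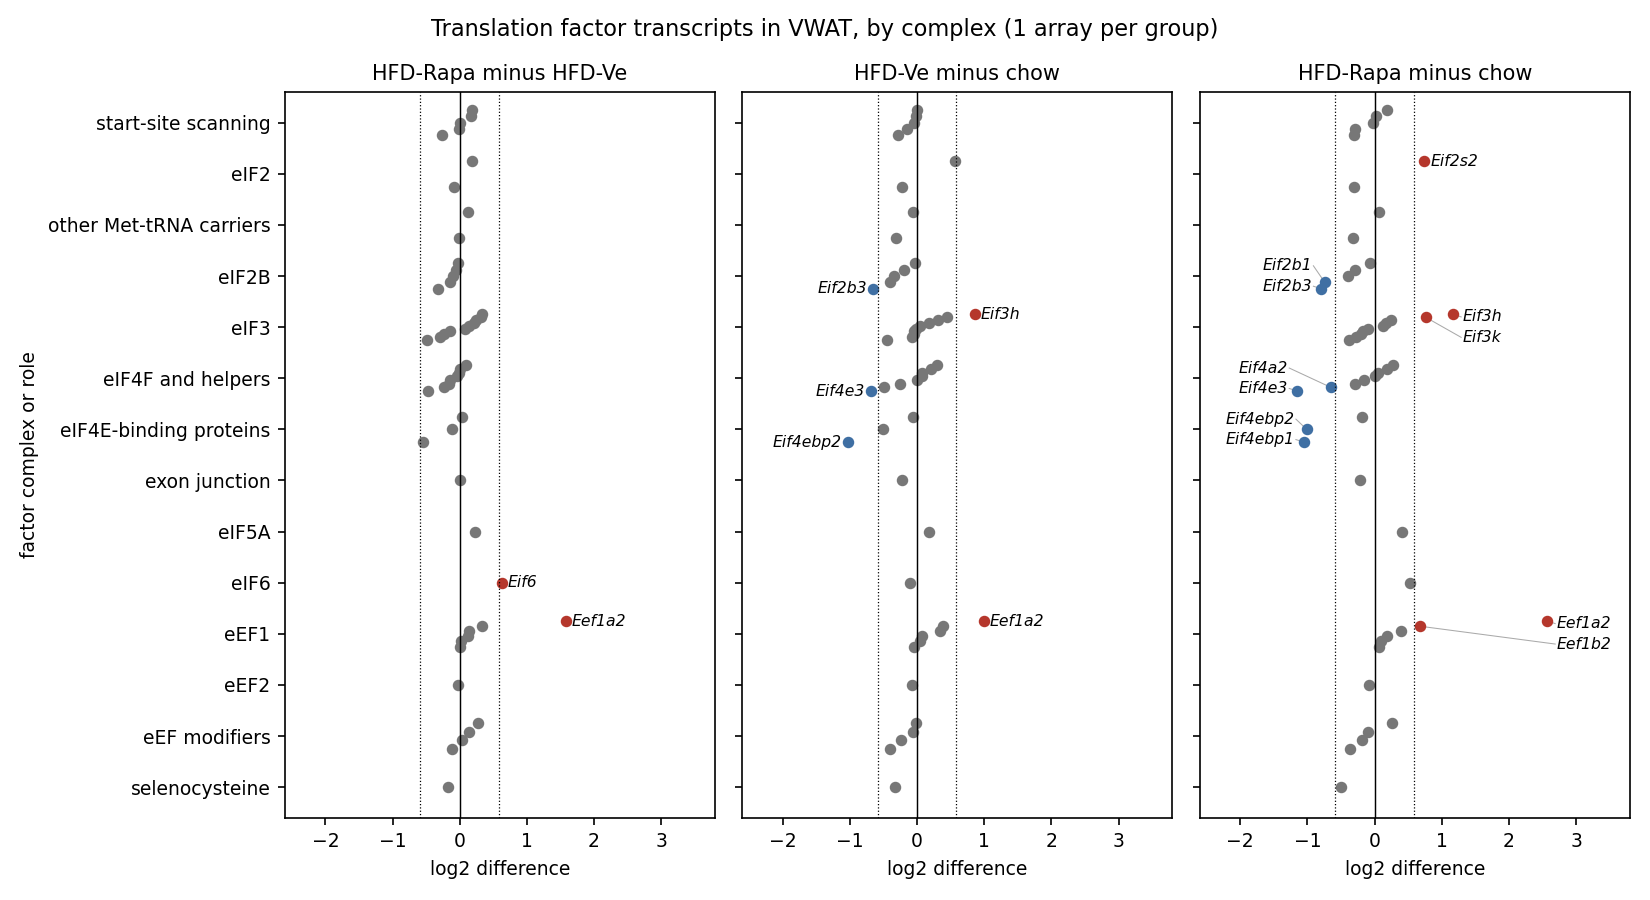
Log2 difference of each of the 50 translation factor transcripts (x axis), grouped by complex or role (y axis), for HFD-Rapa minus HFD-Ve, HFD-Ve minus chow and HFD-Rapa minus chow, with 1 array per group. Dotted lines mark 1.5-fold, and red and blue points with names lie above and below it, 2 and 0 members in the first panel, 2 and 3 in the second and 5 and 6 in the third.

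VWAT is a mix of cells, and the signals of cell type markers differed between the arrays. Of 10 adipocyte markers 9 were measured, and 5 of these were at least 1.5-fold lower in HFD-Rapa relative to HFD-Ve and 0 were higher, with summed normalized signals of 60930 in HFD-Rapa, 76950 in HFD-Ve and 72030 in chow. For macrophages, 5 of 9 markers were above HFD-Ve by that fold and 0 below it, with sums of 40490 in HFD-Rapa, 27900 in HFD-Ve and 9854 in chow, and all 9 were higher in HFD-Rapa than in chow. Between HFD-Ve and chow, 8 of the 9 macrophage markers were higher and 3 of the 9 adipocyte markers lower, 1 being higher. The 4 measured T cell markers of 7 and the 2 measured B cell markers of 5 were all at least 1.5-fold higher, 5 of 6 endothelial markers were lower, 2 of 3 mesothelial markers were higher, and 0 of 5 fibroblast markers passed that fold between the high-fat groups. Against chow, 3 of the 5 fibroblast markers were higher in each high-fat group, and 2 of the 3 mesothelial markers were lower in HFD-Ve. The part of these markers' cell types in the differences of the translation factors was not tested. Of 7 sex-linked markers 4 were measured. Eif2s3y, left out of the members, had raw signals of 1125 in HFD-Rapa, 1609 in HFD-Ve and 988 in chow. In the same order of arrays Kdm5d had 242, 265 and 231, Uty 143, 174 and 124, and Kdm6a 415, 396 and 426. None was 1.5-fold apart in any comparison, and the part of the sexes in each pool was not tested.

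Across the 3 arrays, 38 of the 50 members (76.0%) stayed within 1.5-fold between their highest and lowest signal, as did 54.4% of all measured genes. The median range was 0.29 on the log2 scale for the members and 0.53 for all genes, and 5 members (10%) and 22.0% of all genes spanned 2-fold or more. The members were also detected more widely, 49 of 50 on all 3 arrays against 88.0% of all genes, and subtracting background stretches the differences of weak signals. The part of detection in the narrow range of the members was not tested.

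**Figure D2:**
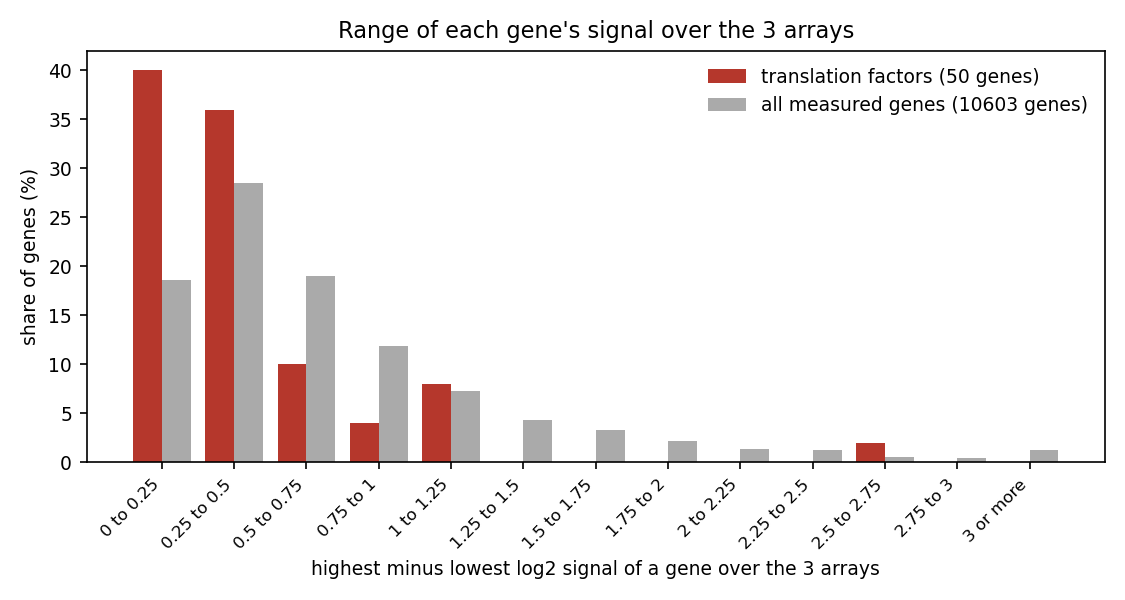
Share of genes (y axis, %) by the highest minus the lowest log2 signal over the 3 arrays (x axis), for the 50 translation factors (red) and the 10603 measured genes (grey). Of the members 40.0% and of all genes 18.6% lie in the lowest bin, up to 0.25, and the single member beyond 2.5 is Eef1a2.

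The sequences around the annotated starts are shown because a TOP start is the feature through which mTORC1 is known to act on such mRNAs. Of the 50 members 39 matched the RefSeq promoter table (GRCm38.p6), which holds 250 bases before and 50 after each annotated start, for some genes with several starts. The 11 others were Eef1akmt1, Eef1d, Eef1g, Eif1a, Eif2b3, Eif3h, Eif3i, Eif4e3, Eif4ebp1, Eif4g2 and Eif6. A C at the start followed by at least 4 bases that are each C or T was found in 2 of the 39 members (5.13%), in 3.01% of 27025 genes in the table and in 2.89% of the 8585 measured genes in it. These were Eif3f, a subunit of eIF3, and Eif2s3x, the subunit of eIF2 that binds GTP and the tRNA. The capitals mark the run of C and T from the annotated start, on the plus strand for Eif3f (chr7:108934405-108934434) and on the minus strand for Eif2s3x (chrX:94212632-94212661).
Eif3f: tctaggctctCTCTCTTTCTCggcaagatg
Eif2s3x: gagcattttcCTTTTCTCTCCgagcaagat
The log2 difference between HFD-Rapa and HFD-Ve was 0.14 for Eif3f and -0.08 for Eif2s3x. Whether the other members have such a start outside the annotated position cannot be read from this match.

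The E-box CACGTG, a palindrome that reads alike on both strands and is bound by MYC, USF and TFEB, occurred in the promoter windows of 11 of the 39 members (28.2%), in 8.09% of all genes of the table and in 12% of the measured genes in it. It does not overlap the TOP runs in the windows shown. The members that carry it include Eef2, the kinase gene Eef2k, the cap-binding Eif4e and Eif3k, shown with the E-box in capitals because they stand for elongation, its control, cap binding and the eIF3 complex. Counted from the annotated start, with negative values upstream, the E-box begins at -43 in Eef2 (chr10:81176576-81176605, plus strand) and at -31 in Eef2k (chr7:120842788-120842817, plus strand). It begins at -64 in Eif4e, the nearer of its 2 E-boxes (chr3:138527192-138527221, plus strand), and at -44 in Eif3k (chr7:28981915-28981944, minus strand).
Eef2: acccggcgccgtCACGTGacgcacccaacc
Eef2k: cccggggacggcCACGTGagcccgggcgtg
Eif4e: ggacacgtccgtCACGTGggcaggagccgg
Eif3k: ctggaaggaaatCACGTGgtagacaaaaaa
The 11 members with an E-box had log2 differences of HFD-Rapa minus HFD-Ve between -0.15 and 0.33 (median 0.10), and the 28 without had differences between -0.48 and 1.58 (median -0.01). A match is a description of the sequence, the shares were not tested, and binding was not measured.

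The factors that help the ribosome find the start codon differed little between the groups by brightest probe. In this set of 5 measured members none was 1.5-fold apart in any comparison on its brightest probe, and the median log2 difference was 0.01 between the high-fat groups. The lowest was Eif5, which makes eIF2 split its GTP at the start codon, with raw signals of 4390 on the HFD-Rapa, 5659 on the HFD-Ve and 4811 on the chow array, a log2 difference of -0.27 between the high-fat groups. Its 3 probes were between -0.38 and -0.23 in that comparison. For HFD-Rapa against chow they were between -0.69 and -0.29, and the lowest of them was 1.61-fold lower. The highest was Eif1ad, placed in this set by its symbol alone, at 0.18. The others, Eif1b, Eif1a and Eif5b, which joins the large subunit, had 0.17, 0.01 and -0.01. Eif1ax was detected on no array, and no probe is named here for Eif1. With the arrays at a common median 2 of the 5 were higher and 3 lower between the high-fat groups, with a median of -0.07.

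The 2 measured subunits of eIF2, the carrier of the initiator tRNA, differed in opposite directions from chow. Eif2s2, its beta subunit, had raw signals of 1163 in HFD-Rapa, 1145 in HFD-Ve and 665 in chow. After normalization it was 1.67-fold higher in HFD-Rapa than in chow, 1.48-fold higher in HFD-Ve than in chow, and 1.13-fold higher in HFD-Rapa relative to HFD-Ve. Its second probe gave log2 differences of 0.79, 0.58 and 0.21 for the same comparisons, so the chow array was the low one with either probe. Eif2s3x, the gamma subunit encoded on the X chromosome, had 1667, 1950 and 1880 in HFD-Rapa, HFD-Ve and chow, a log2 difference of -0.30 between HFD-Rapa and chow. The alpha subunit Eif2s1, which the stress kinases phosphorylate, was not analysed here, and Eif2s3x-ps1 was detected on no array. Eif2a and Eif2d, which can carry an initiator tRNA without eIF2, differed between HFD-Rapa and HFD-Ve by 0.13 and -0.01 on the log2 scale.

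All 5 subunits of eIF2B, the factor that reloads eIF2 with GTP, were lower in HFD-Rapa than in chow, as were 5552 of the 10603 measured genes. The median log2 difference was -0.40, and 2 subunits were lower by at least 1.5-fold, as were 19.5% of all genes. With the arrays at a common median Eif2b2 was instead 0.02 higher. Eif2b3, the gamma subunit, had raw signals of 709 in HFD-Rapa, 856 in HFD-Ve and 1080 in chow and was 1.73-fold lower in HFD-Rapa and 1.56-fold lower in HFD-Ve than in chow. Eif2b1, the regulatory alpha subunit, had 572 in HFD-Rapa, 774 in HFD-Ve and 830 in chow and was 1.67-fold lower in HFD-Rapa than in chow and 1.26-fold lower than in HFD-Ve. Its second probe ran the same way, at -0.48 and -0.42 on the log2 scale. Eif2b4 and the catalytic subunit Eif2b5 were 1.32-fold and 1.22-fold lower in HFD-Rapa than in chow, while Eif2b2 differed by 1.04-fold. Between HFD-Rapa and HFD-Ve the 5 subunits lay between -0.33 and -0.03, with a median of -0.10. All 5 were lower between these groups, as were 5037 of the 10603 measured genes. They were also lower in each of the 3 other scalings, which use the same arrays. The medians there were -0.20 at a common median, -0.07 at a common 75th percentile and -0.09 in the authors' processed values.

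The 10 measured subunits of eIF3, the largest initiation factor, were split. Between HFD-Rapa and HFD-Ve none was 1.5-fold apart, 6 were higher and 4 lower, and the median log2 difference was 0.11, against 5 higher and 5 lower with a median of 0.01 when the arrays were set to a common median. Eif3h had raw signals of 303 in HFD-Rapa, 283 in HFD-Ve and 159 in chow, and was 2.25-fold higher in HFD-Rapa and 1.81-fold higher in HFD-Ve than in chow. The second of these folds was under 1.5 in 2 of the settings tried, without background correction and in the authors' processed values, and at its smallest 1.46-fold. Eif3k had 2486, 2192 and 1371 in HFD-Rapa, HFD-Ve and chow and was 1.70-fold higher in HFD-Rapa than in chow. In both genes the 2 high-fat arrays lay above the chow array, and each has a single kept probe. Eif3l ran the other way, with a log2 difference of -0.38 between HFD-Rapa and chow on each of its 2 probes. Eif3c, the scaffold subunit, was 1.40-fold lower in HFD-Rapa relative to HFD-Ve with its brightest probe (603 in HFD-Rapa, 903 in HFD-Ve and 611 in chow), but its second probe had 508, 463 and 251 and a log2 difference of 0.33. The direction for Eif3c thus depends on the probe. Among the others, Eif3d, Eif3i, Eif3f and Eif3j1 had log2 differences of 0.25, 0.21, 0.14 and 0.08 between the high-fat groups, and Eif3b and Eif3a had -0.23 and -0.15. Eif3e and Eif3m were detected on no array, and no probe is named here for Eif3g.

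**Figure D3:**
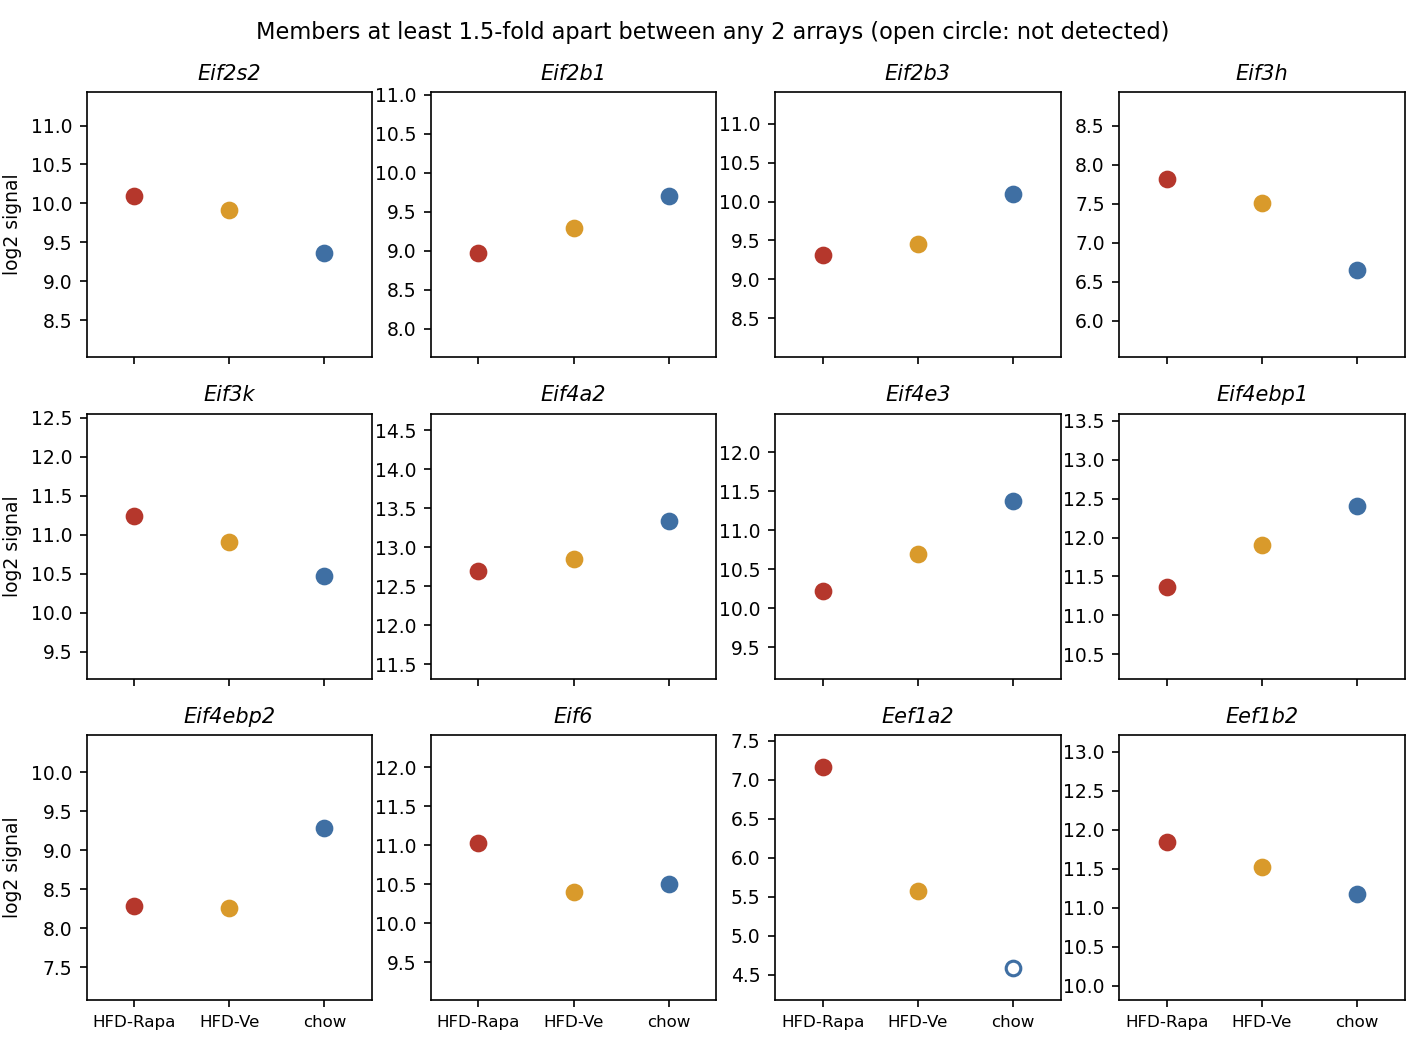
Normalized log2 signal (y axis, the same height in log2 units in each panel) on the HFD-Rapa, HFD-Ve and chow arrays (x axis) for the 12 members at least 1.5-fold apart between any 2 arrays. Each point is 1 array, and the open circle marks Eef1a2 on the chow array, where it was not detected. In 5 of the panels the signal is highest in HFD-Rapa and lowest in chow, in 5 the order is the reverse, and in Eif6 the HFD-Rapa array stands above the others.

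Among the cap-binding factors, Eif4e3, a homologue of the cap-binding protein eIF4E, was the lowest. Its raw signals were 1261 in HFD-Rapa, 1900 in HFD-Ve and 2510 in chow, and it was 2.22-fold lower in HFD-Rapa and 1.60-fold lower in HFD-Ve than in chow. Between HFD-Rapa and HFD-Ve it was 1.38-fold lower, and its 3 probes gave log2 differences of -0.61, -0.50 and -0.47. The chow array was the highest on all 3 probes. Eif4e itself had 175 in HFD-Rapa, 188 in HFD-Ve and 141 in chow, and a log2 difference of -0.01 between the high-fat groups. Eif4e2, a cap-binding homologue that represses translation, had -0.15. Eif4a2, one of the helicases of eIF4F, had 6744 in HFD-Rapa, 8014 in HFD-Ve and 9708 in chow and was 1.57-fold lower in HFD-Rapa than in chow, with -1.01 and 0.00 on the log2 scale on its other probes, so that the dimmest probe does not share the difference. The close relative Eif4a1 had 7636, 7702 and 6034 and was 1.13-fold higher in HFD-Rapa than in chow, with a log2 difference of 0.72 on its other probe. Of the 8 measured members of this group 6 were lower in HFD-Rapa relative to HFD-Ve, as were 5037 of the 10603 measured genes. None was lower by 1.5-fold, and the median was -0.09. At 2 decimals, 7 were lower and 1 higher with the arrays at a common median, and 4 lower and 2 higher at a common 75th percentile. Eif4g2 had -0.23 on its brightest probe and -0.28 and 0.31 on the others, so its direction depends on the probe. Eif4h, a cofactor of the helicases, had -0.04. Eif4b had 0.00, with 0.27 on its other probe. The scaffold Eif4g1 was not analysed here, and Eif4g3 and Eif4e1b were detected on no array.

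Both measured genes for 4E-BPs, the proteins that restrain eIF4E, were lower in obese than in lean VWAT. Of the 10603 measured genes, 5801 were lower in HFD-Ve than in chow and 5552 in HFD-Rapa than in chow. By at least 1.5-fold, 11.7% and 19.5% of all genes were lower in these comparisons. Eif4ebp1 had raw signals of 2691 in HFD-Rapa, 4208 in HFD-Ve and 4993 in chow. It was 1.45-fold lower in HFD-Rapa relative to HFD-Ve, 1.42-fold lower in HFD-Ve than in chow and 2.06-fold lower in HFD-Rapa than in chow. On the log2 scale HFD-Rapa minus HFD-Ve was -0.54 and HFD-Ve minus chow -0.51, and with the arrays at a common median they were -0.63 and -0.31. Eif4ebp2 had 386 in HFD-Rapa, 419 in HFD-Ve and 635 in chow, was 2.01-fold lower in HFD-Rapa and 2.04-fold lower in HFD-Ve than in chow, and differed by 1.02-fold between the high-fat groups. Each gene has 1 kept probe. Eif4enif1, which carries eIF4E into the nucleus, had a log2 difference of -0.12 between HFD-Rapa and HFD-Ve, and Eif4ebp3 was detected on no array. With the arrays at a common median, Eif4ebp1, Eif4e3 and Eif3c were past 1.5-fold below HFD-Ve in HFD-Rapa, at 1.55-, 1.51- and 1.53-fold.

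Eif6, which has 1 kept probe, was the only initiation factor at least 1.5-fold higher in HFD-Rapa relative to HFD-Ve. Its raw signals were 2153 in HFD-Rapa, 1558 in HFD-Ve and 1394 in chow, and the normalized log2 signals were 11.03, 10.40 and 10.50. It was 1.45-fold higher in HFD-Rapa than in chow and 1.07-fold lower in HFD-Ve than in chow. With the arrays at a common median the difference from HFD-Ve was 1.43-fold. Eif5a, which helps the ribosome past stretches of proline and carries the amino acid hypusine, was 1.17-fold higher in HFD-Rapa relative to HFD-Ve on its brightest probe, with -0.07 and 0.07 on the log2 scale on the others, and Eif5a2 was detected on no array. Eif4a3, a core part of the exon junction complex, differed by 1.01-fold.

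Among the elongation factors, Eef1a2 had the widest range of all 50 members. It encodes the form of eEF1A that replaces eEF1A1 in mature skeletal muscle, heart and neurons. Its raw signals were 220 in HFD-Rapa, 133 in HFD-Ve and 89.5 in chow on the brighter probe and 198, 131 and 91.7 on the second probe. Both probes were detected on the high-fat arrays and not on the chow array. The gene was 2.99-fold higher in HFD-Rapa relative to HFD-Ve (log2 differences of 1.58 and 1.38 on the 2 probes). Against the lowest signal detected on the chow array, it was at least 3.19-fold higher in HFD-Rapa on the brighter probe and at least 2.67-fold on the second with this background correction. These are bounds for that correction only, since the estimate in the authors' processed values was 2.21-fold. The signals lie near background, where the correction weighs most, and the difference between the high-fat groups was 1.74-fold in the authors' processed values and 3.08-fold at most among the settings tried. Of 6 skeletal muscle markers only Acta1 and Pvalb were detected, Acta1 at 505 in HFD-Rapa, 648 in HFD-Ve and 851 in chow and Pvalb at 307, 645 and 105, the last not above background. Both muscle markers were lower in HFD-Rapa relative to HFD-Ve, and the others were at background on all arrays. Against chow Pvalb was higher and Acta1 lower in each high-fat group. The part of muscle in the signal of Eef1a2 was not tested.

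The ubiquitous Eef1a1, by contrast, had 34049 in HFD-Rapa, 35696 in HFD-Ve and 30134 in chow and differed by 1.10-fold between HFD-Rapa and HFD-Ve. Eef1b2, part of the exchange factor that recharges eEF1A with GTP, had 3776 in HFD-Rapa, 3328 in HFD-Ve and 2178 in chow and was 1.59-fold higher in HFD-Rapa than in chow. Its 3 probes lay between 0.47 and 0.99 on the log2 scale in that comparison. The 6 measured genes grouped as eEF1 include Eef1e1, placed there by its symbol alone, with log2 differences of 0.02 from HFD-Ve and 0.40 from chow in HFD-Rapa. Of the 6 genes 5 were higher in HFD-Rapa relative to HFD-Ve, as were 5561 of the 10603 measured genes. Eef1g was equal at 2 decimals, and the median was 0.14. With the arrays at a common median 3 were higher and 3 lower, Eef1a1 among them at -0.04. Against chow all 6 were higher in HFD-Rapa under each of the 4 scalings, which use the same arrays. The medians were 0.29 here, 0.36 at a common median, 0.24 at a common 75th percentile and 0.22 in the authors' processed values. With the main scaling 5045 of the 10603 measured genes were higher in HFD-Rapa than in chow. The remaining genes, Eef1d, Eef1g and Eef1e1, were within 1.32-fold in all comparisons on their brightest probes. The dimmer probe of Eef1d had raw signals of 165 in HFD-Rapa, 143 in HFD-Ve and 109 in chow, where it was not detected. It was 1.54-fold higher in HFD-Rapa relative to HFD-Ve. Against chow it was at least 1.94-fold higher in HFD-Rapa with this background correction.

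Eef2, which moves the ribosome along and served the study as reference transcript, had raw signals of 739 in HFD-Rapa, 823 in HFD-Ve and 709 in chow. On the log2 scale HFD-Rapa minus HFD-Ve was -0.02, HFD-Ve minus chow -0.07 and HFD-Rapa minus chow -0.08. Its other probes had 0.07 and -0.09 for the first of these, so no probe of Eef2 differed by more than 0.09 between the high-fat groups. With the arrays at a common median the first difference was -0.14. Eef2k, the kinase that switches eEF2 off and is itself restrained downstream of mTORC1, had 258 in HFD-Rapa, 299 in HFD-Ve and 255 in chow and a log2 difference of -0.12 between the high-fat groups. The methyltransferase gene Eef1akmt1, whose product modifies eEF1A, was the highest of the 4 measured modifiers by brightest probe, at 0.27, and the methyltransferase genes Eef1aknmt and Eef2kmt had 0.14 and 0.03, with 0.30 on the second probe of Eef2kmt. Eefsec, the elongation factor for selenocysteine, had -0.17 between the high-fat groups and -0.50 for HFD-Rapa against chow. Its raw signals, 118 in HFD-Rapa, 129 in HFD-Ve and 120 in chow, lie near background. In the authors' processed values these 2 differences were -0.05 and -0.19. Eef1akmt2 was detected on no array.

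The probes of a gene did not always tell the same story. Of the 26 members with more than 1 kept probe, 2 had probes at least 1.5-fold apart in the difference between HFD-Rapa and HFD-Ve, 7.69% against 8.55% of the 3941 genes with several probes. For HFD-Ve against chow these were 7 members, 26.9% against 19.5% of all such genes, and for HFD-Rapa against chow 7 members, 26.9% against 25.4%. Probes of 1 gene differed in sign in 23.1%, 38.5% and 30.8% of the members over these 3 comparisons, beside 27.3%, 27.9% and 25% of all such genes. In Eif3a, the core subunit of eIF3, the brightest probe had a log2 difference of -0.10 between HFD-Rapa and chow and a dimmer one 1.48. In Eif4g2, an eIF4G relative that cannot bind eIF4E, the brightest probe had -0.15 and the dimmest 1.40. In Eif4b, a partner of the helicase eIF4A, the probe that stands for the gene had 0.01 and the other 1.27. These dimmer probes of Eif3a and Eif4g2 and the other probe of Eif3c and of Eif4b lay above chow in both high-fat groups, while the brightest probes of these genes were within 1.24-fold of chow. These 4 genes were chosen for description after their values were seen. Where on the transcripts the probes lie was not analysed here, and near-identical copies such as Eif1a and Eif1ax or Eif3j1 and Eif3j2 could share a probe's signal.

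**Figure D4:**
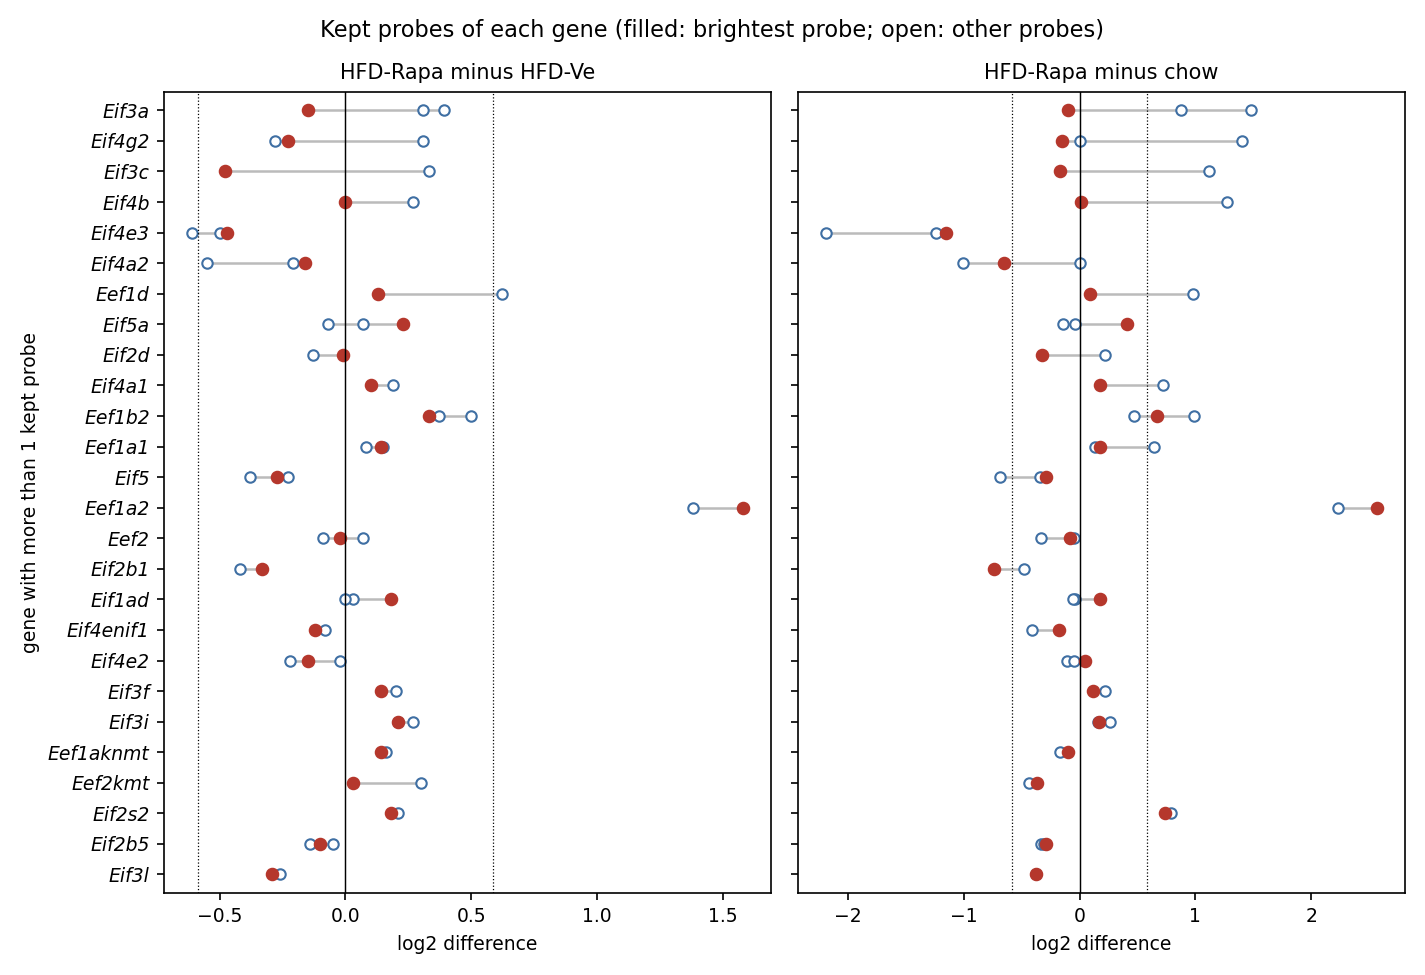
Log2 difference (x axis) of every kept probe of the 26 members with more than 1 probe (y axis), for HFD-Rapa minus HFD-Ve and HFD-Rapa minus chow. Filled red points are the brightest probe, which stands for the gene, open blue points the others, and dotted lines mark 1.5-fold. Eef1a2, Eif4e3 and Eif2s2 have all probes on the same side of 0, while Eif3a, Eif4g2 and Eif3c have probes on both sides.

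Other genes that control or complete translation were read beside the members, from lists of 49 genes of which 42 were measured. Between HFD-Rapa and HFD-Ve 0 of the 42 were at least 1.5-fold higher and 2 were lower, where 8.55% and 7.56% of all genes were, with a median log2 difference of -0.09 beside 0.02 over all genes. Both were in the list of links from mTORC1 and growth signals to translation, while Gfm1 of the mitochondrial list fell just short at 1.496-fold lower. Mknk2, a kinase that phosphorylates eIF4E, had raw signals of 2585 in HFD-Rapa, 4833 in HFD-Ve and 7477 in chow and was 1.74-fold lower in HFD-Rapa relative to HFD-Ve. Larp1, which binds TOP mRNAs, had 347 in HFD-Rapa, 543 in HFD-Ve and 367 in chow on the brightest of its 3 kept probes. It was 1.52-fold lower, close to the threshold, and here the HFD-Ve array was the high one. Of the 5 measured eIF2 alpha kinase and phosphatase genes none was 1.5-fold apart in any comparison. The 9 mitochondrial translation factors had a median of -0.20 between HFD-Rapa and HFD-Ve and -0.48 between HFD-Rapa and chow, with 3 at least 1.5-fold lower in the second comparison, as were 19.5% of all genes. Over all 42 genes 4 were higher and 6 lower in that comparison, where 20.5% and 19.5% of all genes were, with a median of -0.18 beside -0.04 over all genes. The 4 poly(A)-binding genes, the 8 genes of termination and recycling and the 7 genes for the diphthamide of eEF2 and the hypusine of eIF5A had medians of -0.17, -0.10 and 0.11 between the high-fat groups. The last was 0.05 with Dph5, which was not detected on the HFD-Ve array, at its bound. The 4 genes for helicases and other helpers of initiation had a median of -0.04 there, and the 5 eIF2 alpha kinase and phosphatase genes one of 0.08.

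**Figure D5:**
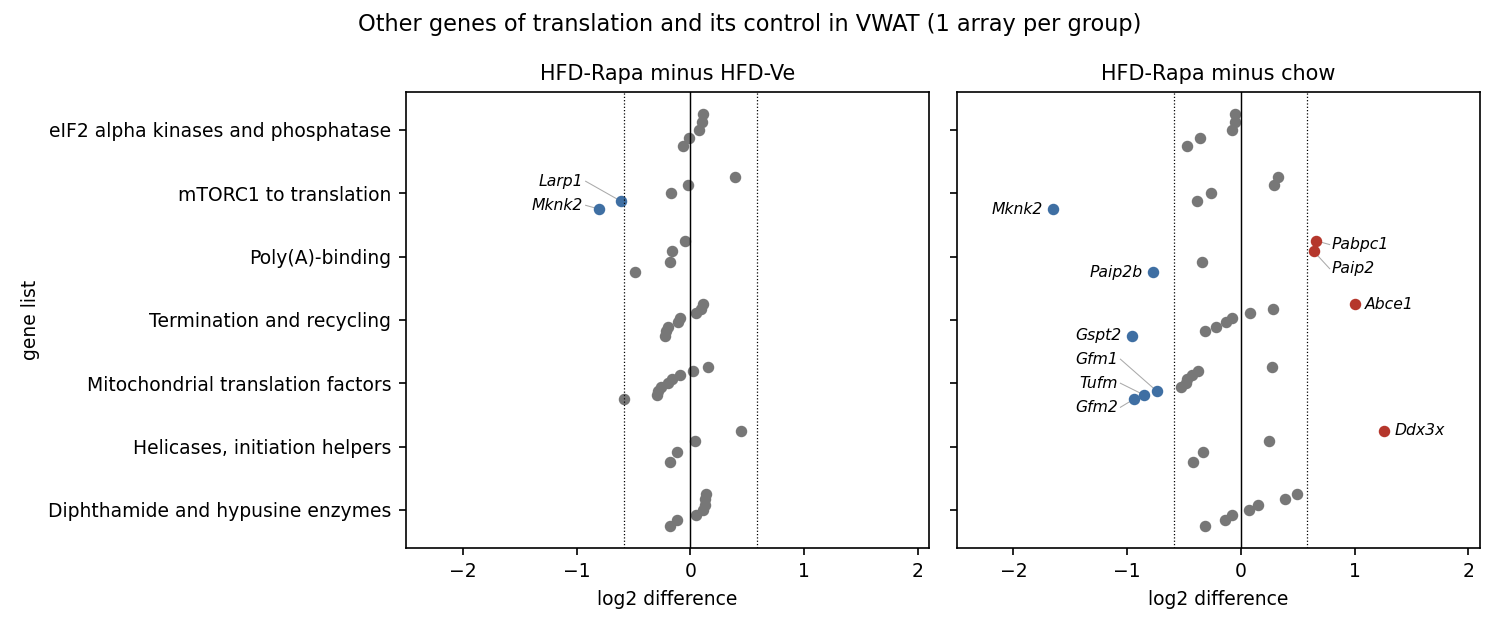
Log2 difference (x axis) of the 42 measured genes in 7 lists of translation control outside the Eif and Eef genes (y axis), for HFD-Rapa minus HFD-Ve and HFD-Rapa minus chow, with 1 array per group. Dotted lines mark 1.5-fold and genes beyond them are named, Mknk2 and Larp1 below it in the first panel and 4 genes above and 6 below it in the second.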

How the data were processed

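The authors deposited the raw signal intensity of 45281 probes per array, made with GenomeStudio according to the submitters' processing notes, which give no version, with a detection p-value beside each signal. A second table holds the authors' processed intensity values, whose normalization is not stated. GeneSpring GX is named in the methods. The RNA extraction kit in the labels differs from that in the methods.

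The raw signals were corrected for background from the detection p (limma 3.58.1, R 4.3.3, offset 16), quantile normalized and expressed as log2. Probes were kept if any array detected them at a p under 0.01, which left 18954. Symbols came from the platform annotation (34885 probes with 1 gene, 18 with several and left unnamed, 10378 unnamed here). The brightest kept probe stood for a gene. Where the dimmer array did not detect a gene, a lower bound is given against the lowest detected signal of that array. At that detection p, 37.4% to 39.7% of probes were detected per array, and median raw signals were 92.7 to 107. The number of arrays limits the precision.

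Calls are differences of at least 1.5-fold, set beside the same count over all genes, with no test. Members, complexes, gene lists, markers and motifs were chosen with earlier results of these data known. Named genes are members at least 1.5-fold apart in any comparison, the highest and lowest member of each complex between HFD-Rapa and HFD-Ve, a list of factors of interest (such as Eef2, Eef2k, Eif4e and the 4E-BPs), and pathway genes past 1.5-fold when the high-fat groups are compared. Further members of a complex and further pathway genes were named after their values were seen. The background correction, the normalization and the 1.5-fold calls were tested on simulated arrays with known changes, with each probe as its own gene. All simulated arrays were built from the HFD-Ve signals without a difference in scale, so they could not decide between normalizations. The other steps were not tested in this way. Computing used Python 3.11.15, numpy 2.4.6, pandas 2.3.3 and matplotlib 3.10.9. The settings tried instead were uncorrected signals, an offset of 50, shifts to a common 75th percentile or median, the authors' processed values, other detection filters, the mean of kept probes and a 2-fold threshold.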

Additional observations from a re-analysis of the deposited data

How the results depend on the processing

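The number of arrays, 1 per group, and signals near background limit these results, and no paired analysis was possible because no group has a replicate. The median log2 difference of the members changed sign with the arrays shifted to a common median, to -0.11 (HFD-Rapa minus HFD-Ve), 0.17 (HFD-Ve minus chow) and 0.02 (HFD-Rapa minus chow), and the median of all genes moved with it. With detection required on all 3 arrays the first of these medians was 0.00, with the opposite sign beyond 2 decimals. The counts of members at least 1.5-fold higher and lower in HFD-Rapa relative to HFD-Ve were 1 and 3 with a common median. With detection on all 3 arrays 1 member was higher, since Eef1a2 is then not measured, and at 2-fold 1 was higher. In HFD-Ve against chow 5 were higher and 1 lower with a common median. There 1 was higher without background correction, 0 in the authors' processed values and 1 with detection on all 3 arrays, and at 2-fold 0 were higher and 1 lower. In HFD-Rapa against chow 2 were higher and 3 lower at 2-fold. Elsewhere these counts stayed within 1.5 times. Of 558 values of single named members under the alternatives that can change them, 534 moved by less than the spread between probes of a gene. Another 24 moved by more, and 0 of those past 1.5-fold changed sign. That spread, a standard deviation of 0.211, 0.318 and 0.377 log2 in the 3 comparisons, is wider than many differences given here. Small differences could thus change sign without counting as moved. Eef1a1 did so with a common median, from 0.14 to -0.04 between HFD-Rapa and HFD-Ve. The detection filters leave the value of a single member as it is and are not counted. Eif4b was at 0.01 for HFD-Rapa against chow but at 0.99 with an offset of 50, at 0.78 without background correction and at 0.77 in the authors' processed values, where its other probe is the brighter one.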
